A study of Saccharomyces cerevisiae with 78 samples.

Results

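M491-E09 is 1 of 25 clones of the yeast Saccharomyces cerevisiae that each carried a plasmid with a fusion gene, a reading frame assembled from pieces of yeast genes. Its members are the 3 libraries whose titles name M491-E09, of 78 libraries in all, and they were set against the 3 libraries titled as control plasmid. The other 24 clones, with 72 libraries, served to show how particular a change was. Every group used here had the same host, the haploid laboratory strain BY4742, of mating type alpha, and each culture was grown to mid-log phase in galactose medium lacking uracil. The M491-E09 cells held the M491-E09 fusion gene plasmid and the control cells a control plasmid, an empty vector that the library names of 2 of the 3 control libraries give as p416-GAL1, a plasmid with the galactose-driven GAL1 promoter and the URA3 marker. The library name of the third control library gives another plasmid name, PP2061. The labels do not say which genes are joined in M491-E09, and a gene that is part of its construct would have an uncertain level in the counts. Each group has 1 plasmid label and 3 biological replicates, measured by mRNA sequencing. The control library named PP2061 is replicate 3, so within the control the plasmid name and the library set described below cannot be told apart.

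Several expression programs recur in the results. At the start of a cell cycle, the G1 cyclins Cln1 and Cln2 and the Pho85 cyclins Pcl1 and Pcl2 are transcribed in late G1 by SBF, a complex of Swi4 and Swi6, and the S-phase cyclins and DNA replication genes by MBF, a complex of Mbp1 and Swi6. The proteasome, the complex that degrades ubiquitin-marked proteins, has its subunit genes under Rpn4, which binds a sequence called PACE. Haploid alpha cells express the alpha-factor pheromone and the receptor for a-factor, under the regulators alpha1 and Mcm1.

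By their library names, replicates 1 and 2 of every group belong to a first library set, and replicate 3 to one marked as resubmitted. Depth was 12469074 to 15213146 counts a library in M491-E09 and 13086342 to 15351634 in the control, within 10773809 to 18981572 over the series. Levels are given as CPM, counts scaled to library size by TMM, always in the order of replicates 1, 2 and 3. Replicates 1 and 2 lay close together, and replicate 3 stood apart: on the log2(CPM + 1) scale the SD over genes of replicate 1 minus replicate 2 was 0.116 in M491-E09 and 0.128 in the control, while that of replicate 3 minus the mean of the other two was 0.387 in M491-E09 and 0.431 in the control. A term for the set was therefore part of the fit, and values within each set stand beside the results they touch. In the first set, M491-E09 lay in plate row C and the control in row E, so that between these 2 groups row and clone cannot be told apart. For this reason M491-E09 was also compared with the 5 other clones of row C. Markers of both mating types were detected, so detection alone did not check the labelled mating type. All 5 tested alpha-specific genes had counts. Of the a-specific genes, the a-factor exporter gene STE6 had 58.1, 57.4 and 53.4 CPM in M491-E09 and 55.4, 51.99 and 53.6 CPM in the control, the receptor gene STE2 had 19.6, 20.3 and 19.4 CPM in M491-E09 and 19.6, 19.6 and 19.2 CPM in the control, and BAR1 had 11.9, 10.2 and 10.7 CPM in M491-E09 and 9.76, 11.02 and 11.8 CPM in the control. ASG7, the other one tested, had 2.89, 4.49 and 2.38 CPM in M491-E09 and 5.62, 4.22 and 3.19 CPM in the control. MFA1, MFA2 and AGA2 were not analysed here.

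The counts on the plasmid constructs were looked at first. The files pool 24 construct sequences in 1 row, so clones are not told apart there. Of these, 23 carry clone names, and the other, of 66 bases, is named PP2061, as is the third control library. Counts from a control plasmid may thus fall in this row too, so its share cannot check the label. This row held 0.413%, 0.426% and 0.521% of the counts in M491-E09, against 0.470%, 0.428% and 0.339% in the control. The groups overlapped, with the highest value in M491-E09 replicate 3 and the lowest in control replicate 3. The means were 0.453% ± 0.0589 in M491-E09 and 0.412% ± 0.0665 in the control (SD, n = 3 each), an exact two-sided permutation test gave p = 0.6, and the smallest p this test can give is 0.1. The presence of the construct in the M491-E09 libraries is therefore not shown by this row. The M491-E09 construct in that row has a counted stretch of 2346 bases.

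Against the control, 138 genes were higher in M491-E09, which is 2.65% of 5212 genes tested, and 67 were lower, which is 1.29% (edgeR quasi-likelihood test, Benjamini-Hochberg adjusted p under 0.05). The changes were small: the median size was 0.31 on the log2 scale, and only 3 genes changed at least 2-fold, all of them downward. Those were the joined row ANB1/HYP2, the pheromone gene MF(ALPHA)1 and INA1, the last of which was singled out after its values were seen. At an unadjusted p of 0.05, 883 genes would be called. Among the 138 higher genes, the 3 M491-E09 values lay above the 3 control values in 94, and among the 67 lower genes below them in 36, while over all genes tested 328 lay above and 212 below. Of the higher genes 136, and of the lower genes 67, lay on the same side in both library sets. Both sets entered the fit that called these genes, so this agreement is largely built into the calls and is no replication. The total of 205 was 127 without M491-E09 replicate 1, 134 without control replicate 1 and 115 without control replicate 2. It was 845 in the first set alone, with 375 higher and 470 lower, and 191 in a fit of only the 6 libraries, with 68 higher and 123 lower, so that the balance of higher and lower genes turned in these 2 fits. Of the other clones 16 had more genes changed against the same control and 8 had fewer, with a median of 400.

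Several genes of late G1 were higher in M491-E09. PCL2, which encodes a cyclin of the Pho85 kinase, was 1 of the 2 highest changes among genes of at least 10 CPM without overlap. It had 37.4, 38.4 and 26.8 CPM in M491-E09, against 21.3, 23.6 and 13.8 CPM in the control. As that rule required, every M491-E09 library lay above every control library, and both groups were lower in replicate 3. No overlap was a condition for the leading genes named against the control, here and below. For those genes the gap is part of the choice and adds nothing to the test. The log2 fold change was 0.81 ± 0.11 (SE), adjusted p = 3.15e-06, and by set it was 0.75 (first) and 0.96 (resubmitted). TOS6, a gene for a cell wall protein, had 425, 414 and 296 CPM in M491-E09, against 239, 239.7 and 220.0 CPM in the control. The groups did not overlap, and M491-E09 replicate 3 was the nearest to the control, at 0.69 ± 0.10 (SE), adjusted p = 3.15e-06 on the log2 scale. CSI2, whose product is linked to chitin synthesis, had 134, 129.6 and 94.1 CPM in M491-E09, against 78.4, 78.9 and 78.6 CPM in the control, which again left a gap between the groups and gave 0.60 ± 0.10 (SE), adjusted p = 2.44e-05. CLN2, a G1 cyclin that drives the start of the cycle, had 478, 442 and 374 CPM in M491-E09, against 281, 289 and 319 CPM in the control, a change of 0.55 ± 0.09 (SE), adjusted p = 3.74e-05 without overlap.

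PCL1, for another Pho85 cyclin, had 377, 352 and 240.0 CPM in M491-E09, against 197, 201 and 259 CPM in the control. Its log2 fold change over both sets was 0.59 ± 0.13 (SE), adjusted p = 0.00273, but the gap was in the first set alone: M491-E09 replicate 3 lay below control replicate 3. CLN1, the other late G1 cyclin gene, had 360.3, 343 and 171 CPM in M491-E09, against 225, 202 and 175 CPM in the control, with both first-set libraries high and no gap in the resubmitted pair, and did not pass the test against the control (log2 fold change 0.53 ± 0.17 (SE), adjusted p = 0.0639). SRL1 and SVS1, both for cell wall proteins, rose by 0.50 and 0.44 on the log2 scale (adjusted p = 4.92e-05 and 0.0037), and AXL2, which marks the bud site, by 0.32 (adjusted p = 0.0345). HSL1, a kinase gene of the morphogenesis checkpoint that was chosen after its values were seen, had 460.0, 453 and 426 CPM in M491-E09, against 336, 344 and 341 CPM in the control, a change of 0.39 ± 0.06 (SE), adjusted p = 3.15e-06 without overlap. The genes upstream did not pass against the control: SWI4, the DNA-binding subunit of SBF, changed by 0.21 ± 0.12 (SE), adjusted p = 0.371, and CLN3, the cyclin that acts before it, by 0.03 ± 0.13 (SE), adjusted p = 0.923. SWI4 did pass against the other clones, at 0.27 ± 0.08 (SE), adjusted p = 0.0314, and lost that call without M491-E09 replicate 1 or 2. Without M491-E09 replicate 1, the calls of PCL1 and SVS1 were lost, and AXL2 lost its call in 5 of the 6 fits that left out a library, all but the one without M491-E09 replicate 3.

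**Figure D1:**
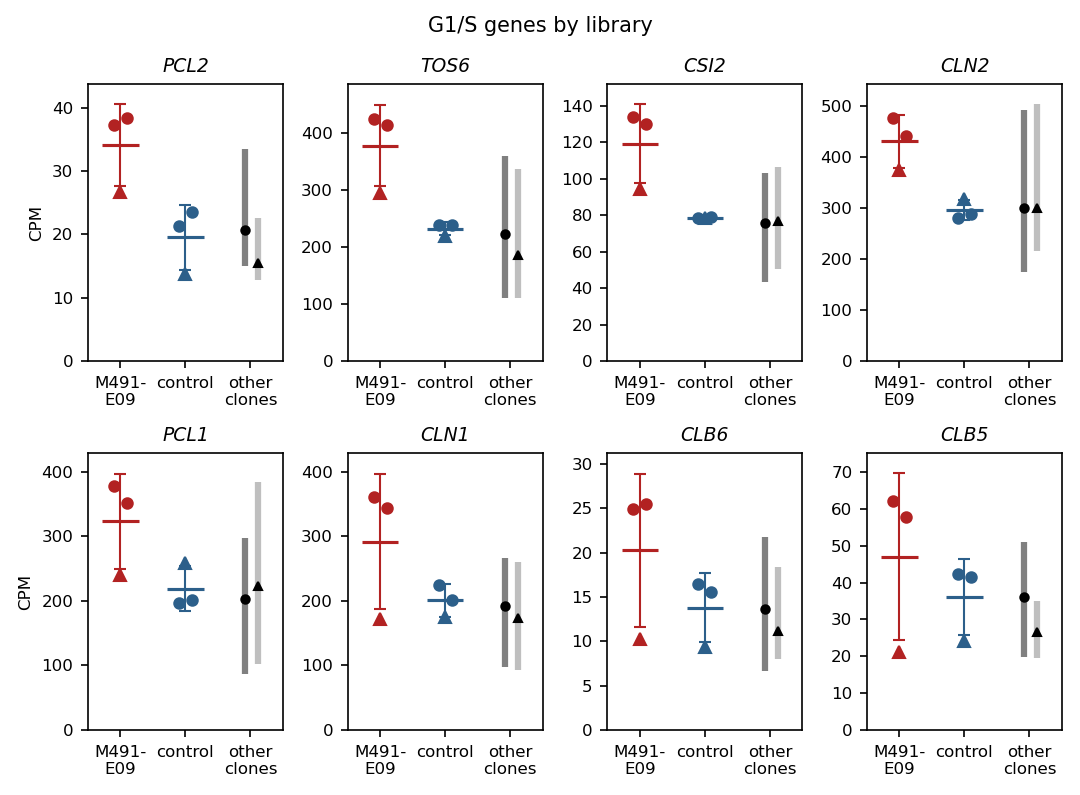
CPM (y axes, from 0) of 8 genes of the G1 to S transition by group. Circles are first-set libraries, triangles resubmitted ones, and the horizontal and vertical lines give the mean and SD of 3 libraries. The bars of the other clones span the lowest to highest library of 24 clones (dark, first set; light, resubmitted) with the median as a black mark. PCL2, TOS6 and CSI2 lie above the control in both sets, while PCL1, CLN1 and CLB5 do so in the first set only.

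Late G1 genes were also higher than the mean of the 24 other clones. In that comparison 308 genes were higher in M491-E09 (5.91% of those tested) and 217 lower (4.16%). Of the G1 genes TOS6 was the furthest, at 0.85 ± 0.07 (SE), adjusted p = 1.15e-14, followed by PCL2 at 0.83, PCL1 at 0.74, CLN1 at 0.70, CSI2 at 0.68 and the S-phase cyclin gene CLB6 at 0.66. PCL2 averaged 34.2 CPM in M491-E09, and the means of the other clones ran from 14.9 to 29.9 CPM. TOS6 averaged 378 CPM in M491-E09 and 113 to 327 CPM over the other clones. CLB6 averaged 20.2 CPM in M491-E09 and 7.28 to 16.9 in the others, and CLN1 292 CPM in M491-E09 and 98.2 to 232 in the others. For both, the mean of M491-E09 also lay above that of every other clone, but the resubmitted library did not stand out. There CLB6 had 10.3 CPM in M491-E09 and a median of 11.1 CPM over the other clones, and CLN1 171 and 174 CPM. The call of CLB6 against the other clones was lost without M491-E09 replicate 1 or 2. In the list of cyclins, mitotic regulators and histones, 8 of 23 rows were higher than in the other clones and 0 lower, with a median log2 fold change of 0.17, while over all genes tested the median was 0.00. Against the control 3 of the 23 rose (PCL2, PCL1 and CLN2), against 2.65% of all genes, 0 fell, and the median was 0.04. The mitotic members CLB1, CLB2, CDC5, CDC20 and SWI5 did not pass in either comparison. The count of 8 was 4 without M491-E09 replicate 1 or 2, and 19 in the first set alone.

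A wider list of 25 SBF targets and one of 33 tested rows of MBF targets and replication genes were drawn up after these values were seen, so their counts are a description. In the SBF list 8 genes were higher against the control (2.65% of all genes were), 16 against the other clones (5.91% of all genes) and 14 against row C (5.49% of all genes), with none lower. Its median against the control was 0.23, where the 24 other clones had medians of -0.60 to 0.10 against the same control libraries. In the MBF list 0 rows passed against the control by edgeR or DESeq2 (9 at an unadjusted p of 0.05), 19 against the other clones and 9 against row C, with a median of 0.15 against the control. The count of 16 was 10 without M491-E09 replicate 1, and that of 19 was 1 without replicate 1, 2 without replicate 2 and 29 without replicate 3. Named members of it were the cohesin gene MCD1 at 0.58 ± 0.12 (SE), adjusted p = 0.00127 against the other clones, CLB5 at 0.53, the ribonucleotide reductase gene RNR1 at 0.53 and POL30, the sliding clamp of replication, at 0.46. Without M491-E09 replicate 1 or 2, none of these 4 passed. RNR1 had 708, 679 and 284 CPM in M491-E09, against 555, 564 and 278 CPM in the control, high in the first set of both groups and low in both resubmitted libraries. By set, the median of the SBF list against the control was 0.29 over first-set libraries and 0.01 in the resubmitted pair, and the difference between sets passed the test in 16 of its 25 genes, against 12.4% (646) of all genes tested.

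Stretches before the start codons of these genes are shown because their letters include the site that Swi4 is known to bind. They are from the RefSeq genome of build R64, by the R64 annotation and matched by locus tag, since the count files place the genes on contigs of another assembly. Each reads in the direction of the gene, and capitals mark CACGAAA or its reverse complement, the match nearest the start codon being flanked by 20 bases on either side.
PCL2 (chrIV:234537-234583, plus strand): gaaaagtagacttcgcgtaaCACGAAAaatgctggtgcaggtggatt
TOS6 (chrXIV:65380-65426, plus strand): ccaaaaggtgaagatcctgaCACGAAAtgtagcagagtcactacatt
CSI2 (chrXV:312607-312653, minus strand): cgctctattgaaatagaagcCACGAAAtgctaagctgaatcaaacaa
PCL1 (chrXIV:87550-87596, plus strand): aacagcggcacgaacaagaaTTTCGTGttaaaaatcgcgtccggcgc
SVS1 (chrXVI:242885-242931, minus strand): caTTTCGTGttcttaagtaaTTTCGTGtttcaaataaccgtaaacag
These letters stood 370 bases before the start codon in PCL2, 344 in TOS6, 266 in CSI2, 327 in PCL1 and 211 in SVS1, counted to their first base. On either strand of the 500 bases before the start codon, CACGAAA occurred in 10 of the 25 SBF genes (40%) and in 429 of 6006 coding genes (7.14%). CLN2, CLN1, SRL1 and AXL2 had no match in this window. The letters ACGCGT, the site known for Mbp1, occurred in 60 of 302 promoters of genes higher than in the other clones (19.9%), in 11 of 215 of the lower ones (5.12%) and in 291 of 5044 of all tested (5.77%). Among genes higher against the control, 3 of 135 held ACGCGT (2.22%). Both motifs were added after the values were seen.

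Most subunit genes of the proteasome rose. The list had 33 genes, of which 31 had a row, and 24 of the 31 were higher in M491-E09 than in the control, against 2.65% of all genes, with 0 lower. All 31 had a log2 fold change above 0, from 0.10 (RPN13) to 0.38 (PUP2), with a median of 0.25, which was 0.01 over all genes tested. In 20 of them the 3 M491-E09 libraries lay above the 3 control libraries, as they did in 6.29% of all genes tested. The size was alike in both sets, with medians of 0.25 in the first and 0.27 in the resubmitted set, and 0 of the 31 differed between sets. The count depended on single libraries: it was 11 without M491-E09 replicate 3, 15 without control replicate 1 or 2, and 13 in the fit of only the 6 libraries.

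The 20S core and the 19S cap were both represented. PUP2, the alpha5 ring subunit of the core, had 304, 293 and 322 CPM in M491-E09, against 240.1, 231 and 236 CPM in the control, all 3 above the control, at 0.38 ± 0.06 (SE), adjusted p = 3.74e-05. PRE6, the alpha4 subunit, had 223, 213 and 231 CPM in M491-E09, against 174, 164 and 177 CPM in the control, with a gap between the groups, at 0.37 ± 0.05 (SE), adjusted p = 3.15e-06. PRE3, the catalytic beta1 subunit, reached 0.32 ± 0.06 (SE), adjusted p = 0.000363. In the cap, RPT1, an ATPase of the base, had 481, 489 and 602 CPM in M491-E09, against 396, 379 and 469 CPM in the control, higher in both replicate 3 libraries but without overlap, at 0.34 ± 0.05 (SE), adjusted p = 3.15e-06. RPT6, another ATPase, reached 0.33 ± 0.07 (SE), adjusted p = 0.00299, which was lost without M491-E09 replicate 3, and RPN10, a ubiquitin receptor, 0.26 ± 0.05 (SE), adjusted p = 0.000908. The 7 subunits that did not pass were RPN13, PRE7, RPN1, RPN12, RPT2, RPN8 and PRE9, with log2 fold changes of 0.10 to 0.27.

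**Figure D2:**
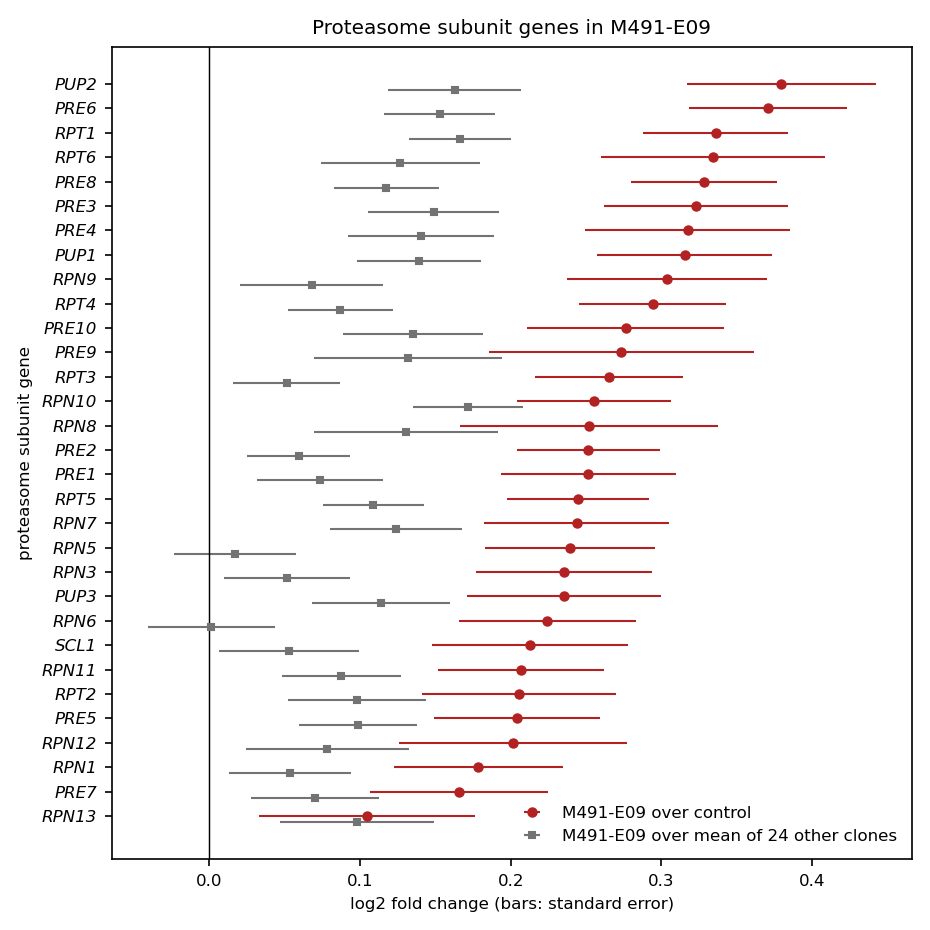
Log2 fold change with SE (x axis) of the 31 proteasome subunit genes (y axis), for M491-E09 over control (red circles) and over the mean of the 24 other clones (grey squares). All red points lie right of 0, with a median of 0.25, and the grey points have a median of 0.10.

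Against the other clones the shift was smaller, and these also lay above the control by list median. Of the 31 genes 8 were higher in M491-E09 than the mean of the 24 other clones, against 5.91% of all genes, with a median of 0.10, and 23 were higher than the mean of the 5 other row C clones, against 5.49% of all genes, with a median of 0.19. Set against the same 3 control libraries, the median of this list was above 0 in 23 of the 24 other clones, from -0.00 to 0.39, and 4 of them lay above M491-E09. The count of 8 was 1 without M491-E09 replicate 3 and 3 in the first set alone. RPN4 itself, the transcription factor gene, had 282, 296 and 331 CPM in M491-E09, against 305, 300.4 and 321 CPM in the control, with overlapping groups, at -0.03 ± 0.11 (SE), adjusted p = 0.924. Of 15 regulators and assembly factors 3 rose, against 2.65% of all genes: ECM29, which binds core and cap, at 0.36 ± 0.07 (SE), adjusted p = 0.00037, the maturation factor UMP1 at 0.23 (adjusted p = 0.0246) and the chaperone gene PBA1 at 0.20 (adjusted p = 0.0485). UMP1 lost its call without M491-E09 replicate 3, control replicate 1 or control replicate 2, and PBA1 lost its call in all 6 fits that left out 1 library. In the ubiquitin and Cdc48 system 6 of 23 rows rose against the control, against 2.65% of all genes, and 0 fell, while 0 of 23 passed against the other clones (lowest adjusted p = 0.101). The list median against the control was 0.05 in M491-E09 and higher in 14 of the 24 other clones, and 9 of them had at least 6 of these rows higher. CDC48, the segregase that extracts ubiquitin-marked proteins, had 1178, 1122 and 1519 CPM in M491-E09, against 1001, 1023 and 1152 CPM in the control, at 0.26 ± 0.06 (SE), adjusted p = 0.00347, with M491-E09 replicate 2 just below the highest control library. Its partners OTU1 and NPL4 rose by 0.26 and 0.22, and the shuttle genes DSK2 and DDI1 and the conjugating enzyme gene UBC8 by 0.20 each. Of these 6, all were lost in at least 1 fit that left out a library, with OTU1 lost only without control replicate 1 and CDC48 without M491-E09 replicate 3 or control replicate 1.

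The proteasome promoters are shown for the letters of PACE, GGTGGCAAA, the site known for Rpn4, which are in capitals on either strand, again read from the R64 genome of RefSeq in the direction of each gene with 20 bases on both sides.
PUP2 (chrVII:999216-999264, minus strand): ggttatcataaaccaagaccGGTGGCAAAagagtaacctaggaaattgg
PRE6 (chrXV:255208-255256, plus strand): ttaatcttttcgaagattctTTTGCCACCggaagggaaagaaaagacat
RPT1 (chrXI:174038-174086, plus strand): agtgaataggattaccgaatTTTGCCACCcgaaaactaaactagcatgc
PRE8 (chrXIII:86831-86879, minus strand): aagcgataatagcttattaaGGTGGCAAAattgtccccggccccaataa
PRE3 (chrX:435025-435073, plus strand): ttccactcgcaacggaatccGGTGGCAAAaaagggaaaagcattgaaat
PACE was found in the 500 bases before the start codon in 26 of the 31 subunit genes (83.9%) and in 99 of 6006 coding genes (1.65%). Its first base stood 104 bases before the start codon in PUP2, 109 in PRE6, 155 in RPT1, 120 in PRE8 and 118 in PRE3. Among promoters of genes higher against the control 29 of 135 held it (21.5%), and among lower genes 0 of 66. Of these 29, 21 were subunit genes. Of the 61 tested genes that held PACE but encode no subunit, 8 were higher (13.1%), against 2.65% of all genes tested. In the same 61, 0 were lower, against 1.29% of all genes, a share at which few or none would be awaited. Their median log2 fold change was 0.09. The 8 were CDC48, ECM29, SDH9, YAP1, CUZ1, SGT2, PRD1 and RIM4. CUZ1 encodes a protein that links Cdc48 to the proteasome and SGT2 a chaperone for tail-anchored membrane proteins, and they rose by 0.41 and 0.39 on the log2 scale (adjusted p = 0.00384 and 0.00696). GET3, the ATPase that takes over from Sgt2 and that was chosen after its values were seen, rose by 0.39 ± 0.06 (SE), adjusted p = 3.9e-06.

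The genes of the alpha mating type were lower in M491-E09. All 5 tested rows of the alpha-specific list fell against the control, against 1.29% of all genes, all 5 fell against the other clones, against 4.16%, and 4 fell against row C, against 3.61%. MF(ALPHA)1, the main alpha-factor gene, had 307, 326 and 222 CPM in M491-E09, against 865, 788 and 304 CPM in the control. The gap was wide in the first set, and control replicate 3 was at the level of the first-set M491-E09 libraries. Its log2 fold change was -1.13 ± 0.21 (SE), adjusted p = 0.000243, made up of -1.38 among first-set libraries and -0.45 among resubmitted ones. STE3, the receptor for a-factor, had 139, 152 and 152 CPM in M491-E09, against 274, 256 and 211 CPM in the control, with no overlap and a change of -0.74 ± 0.11 (SE), adjusted p = 3.15e-06. SAG1, the alpha-agglutinin, had 87.2, 94.1 and 92.9 CPM in M491-E09, against 169, 170.0 and 101 CPM in the control, where control replicate 3 was again near M491-E09, at -0.68 ± 0.17 (SE), adjusted p = 0.00948. MF(ALPHA)2, the minor pheromone gene, reached -0.68 ± 0.17 (SE), adjusted p = 0.0124, and AFB1, which encodes a barrier to a-factor, -0.37 ± 0.05 (SE), adjusted p = 3.15e-06. SAG1 lost its call without M491-E09 replicate 1 or control replicate 1 or 2, and MF(ALPHA)2 without M491-E09 replicate 1 or 2 or control replicate 1.

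The control itself was high for these genes. In the first set, MF(ALPHA)1 ran from 231 to 790.2 CPM over the libraries of the other clones, with a median of 437 CPM, so that control replicate 1 lay above that range and control replicate 2 near its top. Against the other clones the log2 fold change of MF(ALPHA)1 was -0.47 ± 0.15 (SE), adjusted p = 0.0418, which was lost without any 1 of the 3 M491-E09 libraries, and that of STE3 -0.39 ± 0.08 (SE), adjusted p = 0.000693, which held without each. Of the 5 calls against the other clones, 1 was kept without M491-E09 replicate 1 and 2 without replicate 2. By list median against the control, 4 of the 24 other clones lay below the -0.68 of M491-E09. Of 27 haploid and pheromone response genes 2 fell, against 1.29% of all genes, and 0 rose: AGA1, the anchor subunit of a-agglutinin, had 48.1, 46.3 and 59.3 CPM in M491-E09, against 81.2, 94.1 and 82.8 CPM in the control, a fall without overlap at -0.78 ± 0.19 (SE), adjusted p = 0.00943, and PRM4 changed by -0.27 (adjusted p = 0.0131). AGA1 lost its call without M491-E09 replicate 3 or control replicate 2, and PRM4 without M491-E09 replicate 1 or control replicate 2. The other 25 did not pass against the control, with log2 fold changes of -0.38 (FAR1) to 0.12 (STE11) and a list median of -0.11. Against the other clones 4 of the 27 were lower, against 4.16% of all genes, and 0 higher. They were AGA1 at -0.62 ± 0.15 (SE), adjusted p = 0.00364, PRM5, a pheromone-regulated membrane protein gene, at -0.34 ± 0.05 (SE), adjusted p = 4.68e-06, SST2, which desensitises cells to pheromone, at -0.24 ± 0.07 (SE), adjusted p = 0.0157, and FUS3, the kinase of the pathway, at -0.20 ± 0.06 (SE), adjusted p = 0.0337. PRM5, SST2 and FUS3, which were named after their values were seen, had log2 fold changes against the control of -0.20, -0.26 and -0.23. In all 3 genes the M491-E09 libraries lay below the control libraries, as they did in 4.07% of all genes tested. Of the rest of the list, some members such as STE12 and KSS1 also lay below, and others such as FUS1 and KAR4 overlapped. The calls of AGA1 and PRM5 against the other clones held without each M491-E09 library, that of SST2 was lost without replicate 1 or 2, and that of FUS3 without any 1 of the 3. Of 4 a-specific rows, 0 passed in any comparison by edgeR or against the control by DESeq2 (1 at an unadjusted p of 0.05 against the control).

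**Figure D3:**
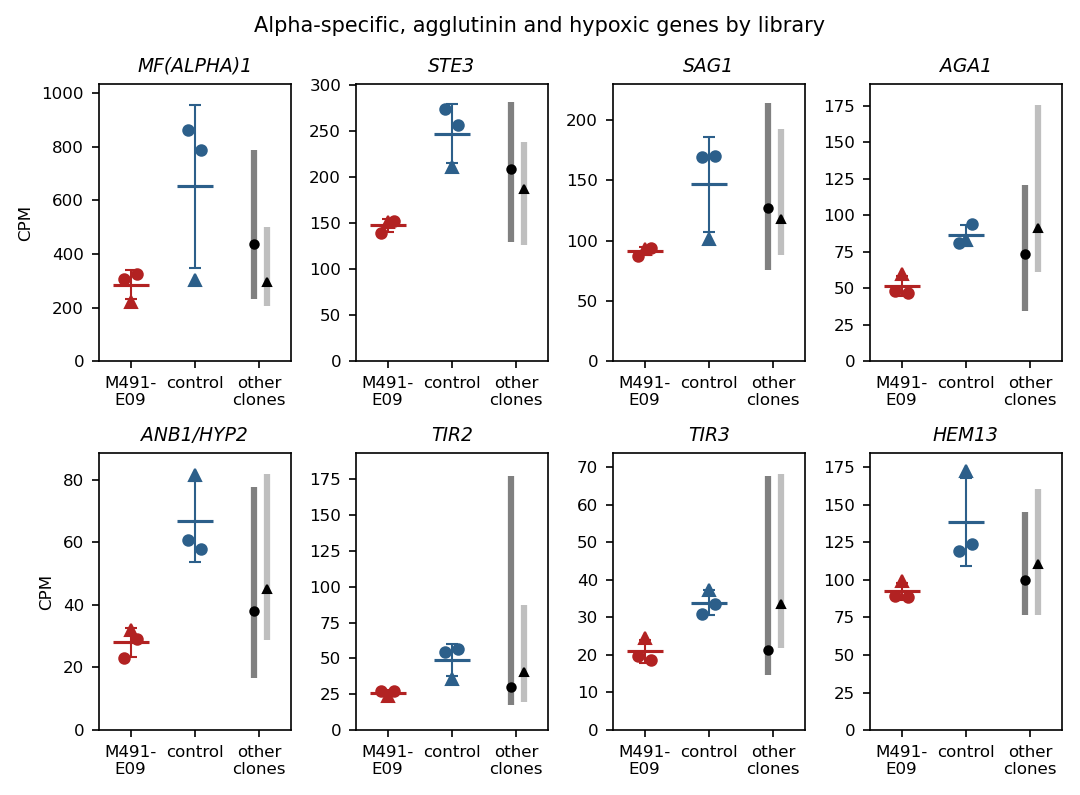
CPM (y axes, from 0) of 4 mating genes (upper row) and 4 rows of hypoxic genes (lower row), drawn as in the plot of the G1 to S genes. M491-E09 lies below the control in all 8 panels by mean, and for MF(ALPHA)1 and SAG1 the resubmitted control library (triangle) is far below the first-set ones.

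Some genes that yeast is known to express under low oxygen were lower, and others were not. The joined row ANB1/HYP2 had 23.01, 29.1 and 31.9 CPM in M491-E09, against 60.6, 57.8 and 81.5 CPM in the control. It carries the names of 2 near-identical genes for translation factor eIF5A, of which ANB1 is the hypoxic one. Every M491-E09 library lay below every control library, at -1.24 ± 0.18 (SE), adjusted p = 3.15e-06. Other joined pairs had a row in each order with its own counts: SAM1/SAM2 averaged 305 CPM in M491-E09 and SAM2/SAM1 138 CPM. Whether the row ANB1/HYP2 holds reads of its first-named gene alone was not tested. In the hypoxic list 3 of 8 rows fell, against 1.29% of all genes, and 0 rose. TIR2, a cell wall mannoprotein gene, had 26.9, 27.1 and 23.9 CPM in M491-E09, against 54.4, 56.5 and 35.9 CPM in the control, without overlap, at -0.93 ± 0.17 (SE), adjusted p = 0.000222. TIR3, of the same family, changed by -0.71 ± 0.18 (SE), adjusted p = 0.0105, and HEM13, an oxygen-using enzyme of heme synthesis, by -0.57 ± 0.11 (SE), adjusted p = 0.000656. TIR1 and TIR4 had log2 fold changes of -0.60 and -0.52 and did not pass, and ROX1, the repressor of hypoxic genes, had 0.08. The other two had positive values that did not pass: 0.33 ± 0.15 (SE), adjusted p = 0.25, for CYC7, the hypoxic form of cytochrome c, and 0.23 ± 0.08 (SE), adjusted p = 0.0866, for the carbonic anhydrase gene NCE103, whose 3 M491-E09 libraries lay above the control libraries. TIP1, another wall mannoprotein gene, changed by -0.57 (adjusted p = 0.0345), and its call was lost in all fits that left out 1 library but the one without control replicate 3. TIR3 lost its call without M491-E09 replicate 3 or control replicate 2. The list median against the control was -0.55 in M491-E09 and -0.61 to 0.03 in the others, with a median of -0.30 over them. It was above 0 in only 4 of the 24 other clones, and 10 of them had at least 3 of these rows lower than the control. Against the mean of the other clones ANB1/HYP2 was lower, at -0.53 ± 0.14 (SE), adjusted p = 0.00839, a call lost without M491-E09 replicate 1. HEM13 did not pass there (adjusted p = 0.132).

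Respiratory genes were slightly higher. In the oxidative phosphorylation list, 3 of 27 rows rose against the control, against 2.65% of all genes, and 0 fell, with a median of 0.18. Against the other clones 17 rose, against 5.91% of all genes, with 0 lower and a median of 0.20, and against row C 16 did, against 5.49%. The 3 against the control were subunits of succinate dehydrogenase: SDH4 had 548, 531 and 482 CPM in M491-E09, against 422, 443 and 400.1 CPM in the control, without overlap, at 0.30 ± 0.06 (SE), adjusted p = 0.00154, SDH2 rose by 0.31 ± 0.07 (SE), adjusted p = 0.00297 and SDH3 by 0.30 ± 0.07 (SE), adjusted p = 0.00422. SDH9, a paralog of SDH1 outside the list, had 42.9, 37.7 and 36.1 CPM in M491-E09, against 24.8, 28.3 and 27.5 CPM in the control, again without overlap, at 0.53 ± 0.08 (SE), adjusted p = 7.21e-06. The cytochrome oxidase gene COX4 and the complex III gene COR1 rose by 0.29 and 0.23 against the other clones (adjusted p = 0.000711 and 0.000313). SDH3 lost its call against the control without M491-E09 replicate 3 or control replicate 2. The count of 17 was 9 without M491-E09 replicate 1, 11 without replicate 2 and 4 without replicate 3. COX4 lost its call without M491-E09 replicate 3. Set against the control, the list median was higher than in M491-E09 in 2 of the 24 other clones, which ran from -0.44 to 0.23.

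**Figure D4:**
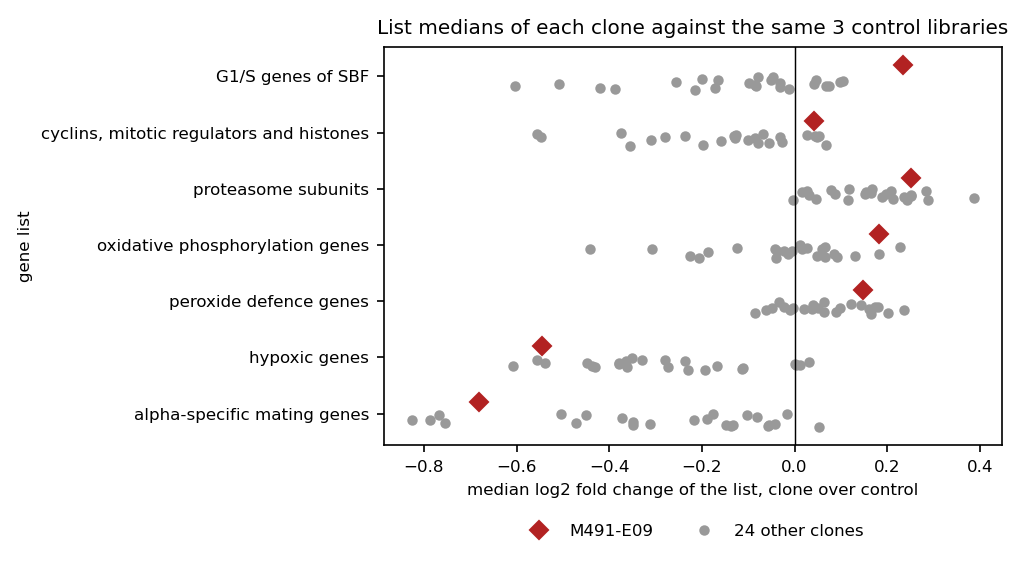
Median log2 fold change against the control (x axis) of 7 gene lists (y axis) in M491-E09 (red diamonds) and in each of the 24 other clones (grey circles), all against the same 3 control libraries. In the list of SBF genes, which was drawn up after the values were seen, M491-E09 at 0.23 lies right of all other clones, whose highest value is 0.10. In the proteasome list 4 clones lie to its right.

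In the tricarboxylic acid and glyoxylate cycles 3 of 20 genes rose against the control, against 2.65% of all genes: LSC2 and LSC1, the subunits of succinyl-CoA ligase, by 0.31 and 0.20, and the malate dehydrogenase gene MDH1 by 0.26 (adjusted p = 0.00223, 0.0476 and 0.0322). MDH1 was also higher than in the other clones, at 0.35 ± 0.05 (SE), adjusted p = 4.68e-06, and its mean of 1163 CPM lay above those of all 24 (523 to 1148 CPM). Of 22 peroxide defence genes 5 rose, against 2.65% of all genes, and 0 fell, with a median of 0.15. Of the other clones 11 had at least as many of these genes higher than the control and 6 had a higher list median. PRX1, the mitochondrial peroxiredoxin, had 778, 722 and 533 CPM in M491-E09, against 561, 572 and 428 CPM in the control, higher within each set while M491-E09 replicate 3 lay below the first-set control libraries, at 0.37 ± 0.07 (SE), adjusted p = 0.000258. TSA1, the main cytosolic peroxiredoxin, had 929, 895 and 799.5 CPM in M491-E09, against 701, 724 and 637 CPM in the control, without overlap, at 0.35 ± 0.08 (SE), adjusted p = 0.00297. SOD2, YAP1 and HYR1 rose by 0.26, 0.20 and 0.18. The count of 5 was 2 without M491-E09 replicate 3 or control replicate 1, and 3 without control replicate 2. Of 18 peroxisomal fatty acid oxidation genes 4 rose, against 2.65% of all genes, and 0 fell, with a median of 0.16: ECI1 by 0.38, FOX2 by 0.35, SPS19 by 0.33 and MDH3 by 0.25. Of these 12 genes, PRX1 and TSA1 kept their call against the control in every fit that left out 1 library, LSC2 lost it without M491-E09 replicate 3, and YAP1 and FOX2 lost it in 2 such fits each, in both cases including that without M491-E09 replicate 3. SOD2 and MDH3 lost theirs without M491-E09 replicate 3, control replicate 1 or control replicate 2, and LSC1, MDH1, HYR1, ECI1 and SPS19 in at least 5 of the 6.

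Outside these groups, the largest single rise against the control with at least 10 CPM and no overlap was that of SEO1, a gene of a putative membrane permease. It had 42.6, 34.5 and 32.3 CPM in M491-E09, against 19.99, 18.6 and 22.3 CPM in the control, high in all 3 libraries, at 0.85 ± 0.20 (SE), adjusted p = 0.00441, and against the other clones at 0.71 ± 0.13 (SE), adjusted p = 0.000203. HSP12, a small membrane-protecting stress protein, had 4602, 4415 and 3088 CPM in M491-E09, against 2442, 2435 and 2076 CPM in the control, without overlap, at 0.77 ± 0.13 (SE), adjusted p = 3.74e-05. Its mean was 4035 CPM in M491-E09, within the 2076 to 8562 CPM over the other clones. LEU1, an enzyme of leucine synthesis, had 836, 741 and 1222 CPM in M491-E09, against 526, 561 and 621 CPM in the control, without overlap, at 0.71 ± 0.13 (SE), adjusted p = 0.000376. It was the 1 gene that rose among 40 rows of Gcn4-controlled amino acid genes, against 2.65% of all genes. In that list 2, ARO3 and ILV1, fell, against 1.29% of all genes, and the median was -0.20. PDR16, a phosphatidylinositol transfer protein gene, had 167, 163 and 135 CPM in M491-E09, against 122, 121 and 93.3 CPM in the control, without overlap, at 0.47 ± 0.06 (SE), adjusted p = 2.41e-06, and rose against the other clones too, by 0.32 (adjusted p = 5.71e-07). EMA35, MSC1, SRT1 and SLF1 rose by 0.58, 0.49, 0.47 and 0.42. MSC1 averaged 748 CPM in M491-E09 and 531 CPM in the control, and 525 to 1195 CPM over the other clones, with a median of 708 CPM. Against those clones MSC1 did not pass, at 0.11 (adjusted p = 0.492). SEO1 lost its call against the control without M491-E09 replicate 1, EMA35 without M491-E09 replicate 1 or control replicate 3, and SLF1 without control replicate 3. MSC1 lost it without M491-E09 replicate 3 or control replicate 1 or 3.

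On the lower side, URA2, the first enzyme of pyrimidine synthesis, had 535, 561 and 763 CPM in M491-E09, against 801, 845 and 1424 CPM in the control, without overlap, at -0.70 ± 0.18 (SE), adjusted p = 0.0163. FUI1, the uridine permease gene, had 33.04, 33.1 and 56.6 CPM in M491-E09, against 46.3, 45.5 and 165 CPM in the control, where control replicate 3 stood far above all others, and changed by -0.88 ± 0.19 (SE), adjusted p = 0.00223. They were the 2 of 12 tested rows that passed in a list of pyrimidine genes made after the values were seen, while 1.29% of all genes were lower. URA2 lost its call without M491-E09 replicate 1 or 3 or control replicate 3, and FUI1 without M491-E09 replicate 3 or control replicate 3. INA1 had 31.03, 32.1 and 89.7 CPM in M491-E09, against 69.1, 69.1 and 212 CPM in the control, lower within each set, at -1.17 ± 0.19 (SE), adjusted p = 2.44e-05, and its log2 fold change against the other clones was -0.18 (adjusted p = 0.463). RAS1, the GTPase gene, had 38.3, 37.7 and 36.3 CPM in M491-E09, against 51.2, 50.7 and 67.5 CPM in the control, without overlap, at -0.58 ± 0.13 (SE), adjusted p = 0.00321. UPC2, the activator of sterol genes, changed by -0.48 ± 0.09 (SE), adjusted p = 0.000422, ESF1, a ribosome biogenesis factor, by -0.50 ± 0.11 (SE), adjusted p = 0.00244, and YLR177W by -0.44 (adjusted p = 0.000379). For UPC2 the control mean of 182 CPM lay above the other clone means of 117 to 174 CPM, while M491-E09 averaged 129 CPM. Against the other clones UPC2, URA2 and FUI1 changed by -0.15, -0.25 and -0.32. None of them passed there (adjusted p = 0.153, 0.252 and 0.149). NDJ1, a meiotic telomere protein gene, and ARO9, an aromatic aminotransferase gene, changed by -0.56 and -0.45. NDJ1 lost its call in 5 of the 6 fits that left out 1 library and ARO9 in 4.

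Other genes stood out against the other clones. ARI1, an aldehyde reductase gene, had a mean of 28.4 CPM in M491-E09, below those of all 24 other clones (29.03 to 110.0 CPM), at -0.63 ± 0.07 (SE), adjusted p = 5.57e-09. YGR139W, an uncharacterised reading frame, was likewise below all other clones, at -0.59 ± 0.18 (SE), adjusted p = 0.0219, and neither passed against the control (adjusted p = 0.106 and 0.506). CMK2, a calmodulin-dependent kinase gene, had 336, 323 and 444 CPM in M491-E09, against 396, 392 and 698 CPM in the control, lower within each set though the pooled ranges overlapped, and was lower at -0.39 ± 0.10 (SE), adjusted p = 0.0181 against the control and -0.45 ± 0.08 (SE), adjusted p = 7.93e-05 against the other clones. The call against the control was lost without M491-E09 replicate 3 or control replicate 3. YNL234W, BSC1, PRM7, MGA1 and YOR338W were lower than the other clones, with log2 fold changes of -0.46, -0.77, -0.72, -0.48 and -0.48. Without M491-E09 replicate 1, and likewise without replicate 2, the calls of YGR139W, BSC1, PRM7, MGA1 and YOR338W were lost, and those of PRM7 and YOR338W also without replicate 3. On the higher side stood MXR1, a methionine sulfoxide reductase gene, at 0.58 ± 0.16 (SE), adjusted p = 0.0144, which was lost without M491-E09 replicate 3. Against row C the totals were 286 higher (5.49%) and 188 lower (3.61%), a share of 60.3% higher that was 49.3% of 511 genes by DESeq2. PCL2 led the higher side at 0.90 ± 0.08 (SE), adjusted p = 7.46e-12, and the mating-type switching gene HO, itself an SBF target, followed at 0.89 ± 0.22 (SE), adjusted p = 0.00583, with 90.3, 86.4 and 20.6 CPM in M491-E09, against 84.2, 73.2 and 14.4 CPM in the control. HO lay high in the first set of both groups, and its change against the control was 0.21 ± 0.30 (SE), adjusted p = 0.744. The amino acid permease gene DIP5 was higher than row C at 0.68 ± 0.19 (SE), adjusted p = 0.0114. TIR2, TIR3, YGR139W, ANB1/HYP2, ARI1 and AGA1 were the 6 leading lower genes, with -0.81 ± 0.14 (SE), adjusted p = 4.8e-05 for TIR2. The totals of 525 against the other clones and 474 against row C were 166 and 216 without M491-E09 replicate 1, and 164 and 222 without replicate 2.

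How far the difference from the control itself differed between the 2 library sets was tested with an interaction term. It passed in 646 genes, 12.4% of those tested. The spread in this fit rests on replicates 1 and 2, which lie closer together in both groups than either does to replicate 3, and each group has a single resubmitted library. That of the control is the library named PP2061, so a difference between sets cannot be told apart from one between control plasmid names. Of the 138 higher genes 19 and of the 67 lower genes 13 differed between sets. Where they did, the G1 genes TOS6, CSI2, CLN2, PCL1, SVS1 and AXL2 and the alpha genes MF(ALPHA)1, SAG1 and STE3 were further from the control in the first set, and UPC2, RAS1, CMK2 and FUI1 in the resubmitted set. PCL1 changed by 0.87 in the first set but by -0.11 in the resubmitted pair, and CLN1 by 0.72 and -0.03. PDR12, a weak-acid efflux pump gene, had 1278, 1379 and 2959 CPM in M491-E09, against 1494, 1527 and 825 CPM in the control, with M491-E09 replicate 3 the highest and control replicate 3 the lowest, a difference between sets of 2.03 ± 0.18 (SE), adjusted p = 1.81e-10. GCV2 and MTD1, both of one-carbon metabolism, had 172, 167 and 85.5 CPM and 164, 159 and 84.4 CPM in M491-E09 and 136, 140.3 and 246 CPM and 142, 136 and 285 CPM in the control, so that replicate 3 fell below the first set in M491-E09 and lay above it in the control. Their differences between sets were -1.82 and -1.98. The other genes past the threshold with the widest fitted differences, SPL2 and YLR012C, had few reads: 15, 15 and 2 counts in M491-E09 and 13, 18 and 15 in the control for SPL2, and 8, 6 and 0 in M491-E09 and 7 in each control library for YLR012C.

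**Figure D5:**
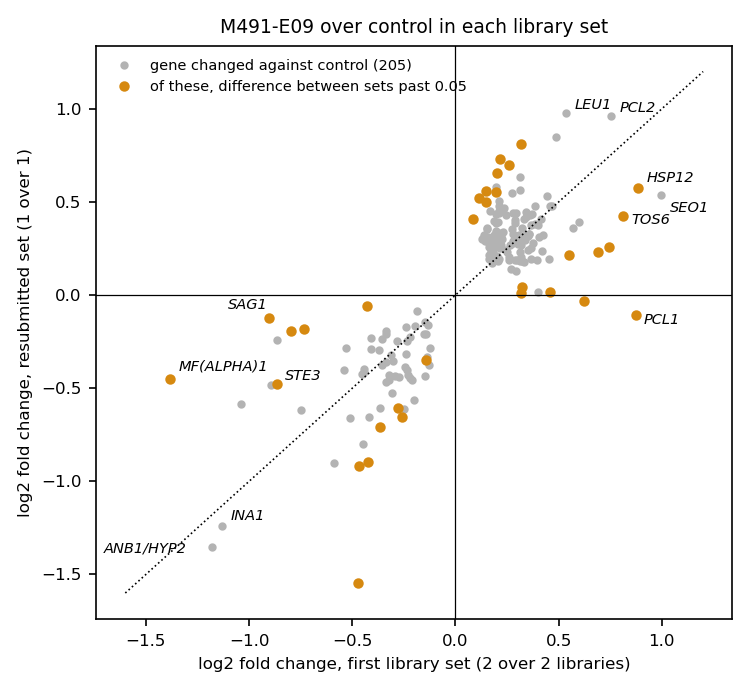
Log2 fold change of M491-E09 over control in the first library set (x axis, 2 over 2 libraries) and the resubmitted set (y axis, 1 over 1), for the 205 genes changed against the control; the dotted line marks equal change. Most points lie on the same side of 0 in both sets, which calls from a fit of both sets favour. PCL1 is an exception, at 0.87 and -0.11, and orange points mark the genes whose difference between sets passed the test.

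The sulfate and methionine genes varied with the set. Of 23 rows 7 were higher than in the other clones, against 5.91% of all genes. Against the control 1 was higher, the sulfate permease gene SUL1, against 2.65% of all genes, and 16 of 23 differed between sets, against 12.4%. MET3, ATP sulfurylase, had 231, 182 and 117 CPM in M491-E09, against 87.2, 83.1 and 134 CPM in the control, with the first-set M491-E09 libraries highest. It changed by 0.79 ± 0.37 (SE), adjusted p = 0.244 against the control and 0.97 ± 0.24 (SE), adjusted p = 0.00506 against the other clones. MET17 changed by 0.95 ± 0.21 (SE), adjusted p = 0.00188 against the other clones and by 0.61 ± 0.33 (SE), adjusted p = 0.328 against the control. These were the 2 largest rises against the other clones among the named genes. SUL1 had 135, 123 and 115 CPM in M491-E09, against 99.5, 99.2 and 94.6 CPM in the control, without overlap, at 0.35 ± 0.08 (SE), adjusted p = 0.00331, which was lost without M491-E09 replicate 1 or control replicate 3. The calls of MET3 and MET17 against the other clones were lost without M491-E09 replicate 1, and that of MET3 also without replicate 2.

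The remaining lists held few or no calls against the control. In the galactose list, which covers the genes induced by the medium, 0 of 12 rows passed by edgeR or DESeq2 (3 at an unadjusted p of 0.05) and the median was -0.04. By both tools 0 passed in 12 further lists, given here with the number at an unadjusted p of 0.05: 65 cytosolic ribosomal protein rows (0, median -0.10), 12 zinc genes (2), 16 phosphate genes (1), 15 genes of the unfolded protein response (1), 13 rows of the CCT chaperonin and prefoldin (0), 20 cell wall integrity genes (4), 14 purine synthesis genes (2), 8 copper genes (5), 12 hexose transporter rows (5), 13 fatty acid synthesis genes (3), 12 inositol and phospholipid genes (1) and 18 G2/M genes (1). Of 80 ribosome biogenesis genes 1 fell, ESF1, against 1.29% of all genes. The median of that list was -0.20 (-0.10 by first-set and -0.40 by resubmitted libraries). Of 27 heat shock chaperone rows 2 rose, against 2.65% of all genes. Their median was -0.02 in the first and 0.33 in the resubmitted set, and 13 rows differed between sets, against 12.4% of all genes.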

How the data were processed

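Messenger RNA of 78 libraries was counted per gene. The deposited files hold raw counts, made by the authors with fastp 0.23.1, STAR 2.5.2b and featureCounts of Subread 1.5.2 on build R64, per the submitters' processing notes. Trimmed reads were deduplicated by molecular identifiers and unique hits counted, per the series' design text. Strand handling is not given in the sources used here, so overlapping antisense genes cannot be told apart. The rows' features lie on contigs of another assembly. Of 5229 gene rows, 5058 were matched to a locus tag of R64, 122 carry several locus tags and 49 were not matched.

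Genes were tested with edgeR 4.0.16 (R 4.3.3; TMM scaling, filterByExpr, quasi-likelihood test, Benjamini-Hochberg threshold 0.05) over all libraries with group and library set as terms, 5212 genes and 51 residual degrees of freedom. SE was taken as |log2 fold change| divided by the square root of F. Totals of 10773809 to 18981572 counts set the precision. The difference between sets was an interaction term, with 26 residual degrees of freedom. The alternatives were another scaling, no filter, no set term, other batches, the first set alone, the 6 libraries alone, a replicate block, DESeq2 1.42.0 and each library left out. The code was tested on simulated data.

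Named genes were up to 15 on each side against the control (mean of at least 10 CPM, no overlap, by log2 fold change), up to 12 against the other clones, 6 against row C and 5 between sets, with list examples. The comparisons and lists were chosen with earlier results of these data known. Lists of SBF, MBF, G2/M and pyrimidine genes were added after values were seen. Some items are not reported here.

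Same-numbered M491-E09 and control libraries deviated together from their group means (correlations 0.705, 0.553 and 0.803). Replicate 1 minus replicate 2, both of the first library set, correlated at -0.222 between the groups. P-values measure the spread between these cultures. No replicate pair agreed within sampling noise (chi-square per gene at least 3.96).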

Additional observations from a re-analysis of the deposited data

Results flagged for a closer look

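Of 103 genes named or described, 33 had a difference between M491-E09 and control that itself differed between the library sets (interaction term, edgeR, adjusted p under 0.05). Values here are the log2 fold change in the resubmitted set minus that in the first set. The resubmitted set has 1 library a group, and the spread rests on replicates 1 and 2, so these p-values do not cover variation among resubmitted libraries. Its control library is the one named PP2061, so library set and control plasmid name cannot be told apart here.

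Among the G1 to S genes the value was -0.98 for PCL1, -0.85 for YOX1, -0.75 for CLN1, -0.71 for CLB5, -0.63 for MCD1, -0.48 for CSI2, -0.46 for CLN2, -0.44 for AXL2, -0.38 for TOS6 and -0.34 for SVS1. Each was higher in M491-E09 in the first set, and the difference was smaller or of the other sign in the resubmitted set.

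Among the mating and wall genes it was 0.93 for MF(ALPHA)1, 0.78 for SAG1, 0.39 for STE3 and 0.55 for TIP1, all less far below the control in the resubmitted set. The stress gene HSP12 had -0.31. In sulfate assimilation it was -1.48 for MET3 and -0.77 for MET17.

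Genes further from the control in the resubmitted set were UPC2 at -0.34, RAS1 at -0.47, CMK2 at -0.40, PRM7 at -0.88, YOR338W at -0.68 and FUI1 at -1.07 on the lower side, and MSC1 at 0.49, DIP5 at 0.57, LSC1 at 0.32, FOX2 at 0.45 and ECI1 at 0.52 on the higher side. PDR12 had 2.03, GCV2 -1.82 and MTD1 -1.98. The fitted values of -3.20 for SPL2 and -6.20 for YLR012C rest on at most 18 counts a library and are no measure of size.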

How the results depend on the processing

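The main values were 205 genes changed against the control, 525 against the other clones and 474 against row C. All of these genes kept their sign in every alternative fitted, but the balance of higher to lower calls turned in some fits, given at the end. Without the set term the counts were 29, 68 and 80, with resubmitted plate row A as its own batch 395, 1087 and 809, and in the first set alone 845, 1690 and 1595. Leaving out 1 library gave 115 to 164, 164 to 538 and 216 to 541. Of the genes called against the control, 178 were shared with the first set alone and 104 with the fit of only the 6 libraries.

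With the replicate block in place of the set term, the counts were 199, 507 and 453, and 2 of 118 named results lost their call. For the difference between sets no such pairing could be fitted.

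In the gene lists, without the set term 2 alpha-specific genes (main 5) and 7 proteasome genes (main 24) passed against the control, and 5 cyclin genes (main 8) and 2 oxidative phosphorylation genes (main 17) against the other clones. The cyclin count was 14 with row A as its own batch and 19 in the first set alone, and the proteasome count 13 in the 6 libraries alone. Leaving out 1 library gave 3 to 5 alpha-specific, 11 to 28 proteasome, 4 to 10 cyclin and 4 to 16 oxidative phosphorylation genes. The share higher against the control, 67.3% in the main fit, turned to 44.4% in the first set alone and 35.6% in the 6 libraries, and was 52.9% with row A, 57.5% by DESeq2 and 52.2% without control replicate 1. In the first set alone the share also turned against the other clones (46.1%, main 58.7%) and against row C (45.8%, main 60.3%), and against row C it was 49.3% both by DESeq2 and without control replicate 1. Of 1616 values of named genes under an alternative, 292 lost their call. With 3 libraries a group, small changes may be missed at any depth used here.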

Other observations

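In 14 purine synthesis genes the difference of M491-E09 from the control often varied with the library set. None of them, 0 of 14, passed against the control by edgeR or DESeq2 (2 at an unadjusted p of 0.05). In 10 that difference itself differed between sets by the interaction term, against 12.4% of all genes tested. Their median log2 fold change against the control was -0.98 over the resubmitted libraries and -0.00 over those of the first set. The interaction term comes from a separate fit, whose spread rests on the first-set replicates, so the counts from these fits cannot be compared directly.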
